A study of Homo sapiens with 24 samples.

Results

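The 10 core genes of the circadian clock, *PER1*, *PER2*, *PER3*, *CRY1*, *CRY2*, *ARNTL* (also called *BMAL1*), *CLOCK*, *NPAS2*, *NR1D1* and *NR1D2*, were followed in A549 cells over 11 hours of exposure to the synthetic glucocorticoid (GC) dexamethasone (dex). They were chosen by name as the core genes of the clock, and are 10 of the 33127 genes to which the transcripts of the count table could be joined. A549 cells are a human lung adenocarcinoma line in long use as a model of the GC response, and the labels name no introduced gene or deletion in them. One arm was exposed to 100 nM dex dissolved in ethanol and the other to ethanol alone (EtOH, 0.02% by volume) as the vehicle, with RNA sequenced every 2 hours from 1 to 11 hours. Each of the 12 combinations of treatment and time was represented by 2 libraries labelled as biological replicates, 24 in all. The labels do not say whether the replicates came from separate cultures, and no library from before exposure was analysed here. The counts of the 47 transcripts of these genes were summed per gene, and all 10 genes passed the filter on low counts.

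The clock is a feedback loop of transcription. The proteins of *ARNTL* and of *CLOCK* or *NPAS2* form dimers that bind E-boxes in DNA and switch on the *PER* and *CRY* genes, whose proteins return to the nucleus and inhibit these dimers. The same dimers switch on *NR1D1* and *NR1D2*, which encode the nuclear receptors REV-ERB alpha and REV-ERB beta, repressors of *ARNTL* and of several other clock genes. GCs are a known signal that sets the phase of clocks in peripheral tissues, the lung included, and *PER1* is a known target of the glucocorticoid receptor (GR).

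E-boxes are shown here because they are the elements through which the activators of the loop are known to act on the *PER* and *CRY* genes, *NR1D1* and *NR1D2*. *CLOCK* is shown only because its window held a match. In promoter sequences from RefSeq (GRCh38.p14, 250 bases before to 50 bases after each start site), all 10 genes were found under 15 start sites, with *ARNTL* listed as *BMAL1*. The E-box CACGTG was present in the windows of *PER1* and *NR1D2*, with 2 copies in *NR1D2*, and in 7.26% of all 35116 windows. The related sequence CACGTT, on either strand, was present for *PER2*, *CRY1*, *CRY2*, *CLOCK* and *NR1D1*, and in 5.34% of all windows. The matches are in capitals, AACGTG being CACGTT on the other strand, and each sequence reads along the strand of its gene.
PER1 (chr17:8152560-8152589, minus strand): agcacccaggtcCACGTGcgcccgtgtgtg
NR1D2, first copy (chr3:23945954-23945983, plus strand): ggcgggcggggaCACGTGaggccgctcggc
NR1D2, second copy (chr3:23946004-23946033, plus strand): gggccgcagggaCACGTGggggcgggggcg
PER2 (chr2:238288790-238288819, minus strand): ggcgcgcgcggtCACGTTttccactatgtg
CRY1 (chr12:107093621-107093650, minus strand): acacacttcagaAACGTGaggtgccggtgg
CRY2 (chr11:45847275-45847304, plus strand): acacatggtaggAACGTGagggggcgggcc
CLOCK (chr4:55546102-55546131, minus strand): tcaccactcgggCACGTTtggagcagcgcc
NR1D1 (chr17:40100740-40100769, minus strand): gcgcaagagctcAACGTGccggctgttgga
Neither the core sequence AGAACA of GR sites, present in 14.8% of all windows, nor the loose palindrome of GNACA and TGTNC with 3 bases between them, present in 0.390%, was found in a window of the 10 genes. Other motifs were found in some members. The D-box TTANNTAA was present for *PER2*, *PER3*, *ARNTL* and *NR1D2*, and in 5.63% of all windows. The core sequence AGGTCA of sites of the ROR and REV-ERB receptors was present for *PER1*, *CRY2* and *ARNTL*, and in 13.8% of all windows. The core sequence TGACG of the cAMP response element was present for *PER2*, *CRY1*, *CRY2*, *CLOCK* and *NR1D2*, and in 24.6% of all windows. All motifs were searched on both strands. A gene is listed where any of its windows held the match, while the shares of all windows count each window. Of the 15 windows of the 10 genes, CACGTG was in 2, CACGTT in 5, TTANNTAA in 4, AGGTCA in 4 and TGACG in 7. A match describes the letters of the window and does not show that a protein binds there. The absence of a match holds for these short windows only, and sites outside them were not searched.

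The libraries held between 6708864 and 13748598 counts, and the correlation between the 2 libraries of a group was between 0.987 and 0.994 on the log2 scale over all features tested. The epithelial keratins *KRT8* and *KRT18* had medians of 2431 and 2522 normalized counts per 1000000 counts (CPM) and *CDH1*, *KRT19*, *EPCAM* and *CLDN4* of 35.6, 13.5, 8.33 and 1.39 CPM. The leukocyte markers *PTPRC* and *CD3E* and the fibroblast marker *COL1A2* had medians of 0, while *ITGAM* had 1.05 (leukocyte) and *COL1A1* 15.5 CPM (fibroblast). The summed level of 6 epithelial markers was between 3242 and 5223 CPM in EtOH libraries and between 3874 and 10650 in dex libraries. Exposure to dex was visible in the GR target *TSC22D3*, with log2 fold changes between 3.25 and 4.49 at the 6 time points. In bulk RNA a change in the RNA per cell and a change in the share of cells that express a gene cannot be told apart.

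The first question was how much of each clock gene the vehicle-treated cells held. The level was compared between genes as normalized CPM per kilobase of the longest transcript, over 12 EtOH libraries. *CRY1* had the highest mean, with 17.4 ± 1.47 CPM per kilobase (SD, n = 12), followed by *NR1D2* with 15 ± 1.79. The activator genes came next, *NPAS2* with 6.79 ± 0.572, *ARNTL* with 5.75 ± 0.450 and *CLOCK* with 4.90 ± 0.676. *PER1* (1.36 ± 0.305), *PER2* (1.27 ± 0.224), *CRY2* (1.27 ± 0.214), *NR1D1* (1.10 ± 0.171) and *PER3* (0.848 ± 0.145) formed the low end. Between neighbours in this order, the ranges of the libraries did not overlap between *NR1D2* and *NPAS2* and between *CLOCK* and *PER1*, and they overlapped between all other neighbours. With the mean length of the transcripts, weighted by their counts, in place of the longest one, *CRY2* and *PER2* changed places.
Under dex, *PER1* had 13.2 ± 2.80 CPM per kilobase (SD, n = 12 libraries), below only *CRY1* with 22.3 ± 5.47 and *NR1D2* with 19.4 ± 11.4. *CLOCK*, *ARNTL* and *NPAS2* had means of 4.81, 4.80 and 4.80, and with the weighted length 5.53, 5.77 and 7.03, in the reverse order. The spread over the dex libraries includes changes with time, which were largest for *NR1D2*.

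**Figure D1:**
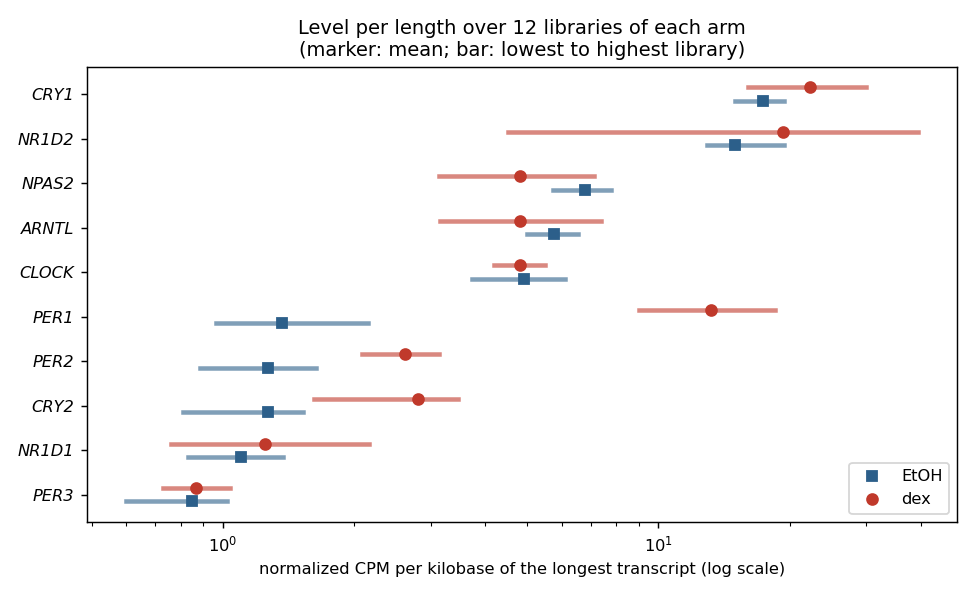
Level of the 10 clock genes as normalized CPM per kilobase of the longest transcript (log axis) over 12 EtOH libraries (blue squares) and 12 dex libraries (red circles), with the mean as marker and the lowest to highest library as bar. *PER1* moves from 1.36 to 13.2 CPM per kilobase, and *NR1D2* has the widest range under dex.

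The next question was whether any of these genes changed with time in the vehicle alone. The quasi-likelihood test of edgeR was used, and a gene passed where its p, adjusted by Benjamini-Hochberg over all 19897 features tested, was 0.1 or less. In EtOH 0 of the 10 genes passed the test over the 6 time points, against 3.33% of all features. At an unadjusted p under 0.05 there were 2 genes, and DESeq2 called 0. The highest mean of a time point was between 1.15 and 1.65 times the lowest, with 1.65 for *PER1*. In dex, 6 of the 10 genes passed the same test (*PER1*, *CRY1*, *CRY2*, *ARNTL*, *NPAS2* and *NR1D2*), against 21.2% of all features. The call of *CRY2* (adjusted p = 0.0633) was lost with DESeq2 (adjusted p = 0.119) and without replicate 1 or 2 at 1 hour, replicate 1 or 2 at 7 hours or replicate 2 at 9 hours (adjusted p = 0.151, 0.315, 0.148, 0.110 and 0.114). *NR1D1* passed without replicate 2 at 5 hours or replicate 1 at 11 hours (adjusted p = 0.0760 and 0.0749), and *PER2* without replicate 1 at 11 hours (adjusted p = 0.0810). There the mean of *NR1D2* at its highest was 7.81 times that at its lowest, and the mean of *ARNTL* 2.01 times.
An 11-hour series is shorter than a circadian cycle, so that a rhythm could not be tested in either arm. Without replicate 2 at 9 hours, *PER1* and *NR1D2* passed in EtOH (adjusted p = 0.0740 and 0.0913).

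**Figure D2:**
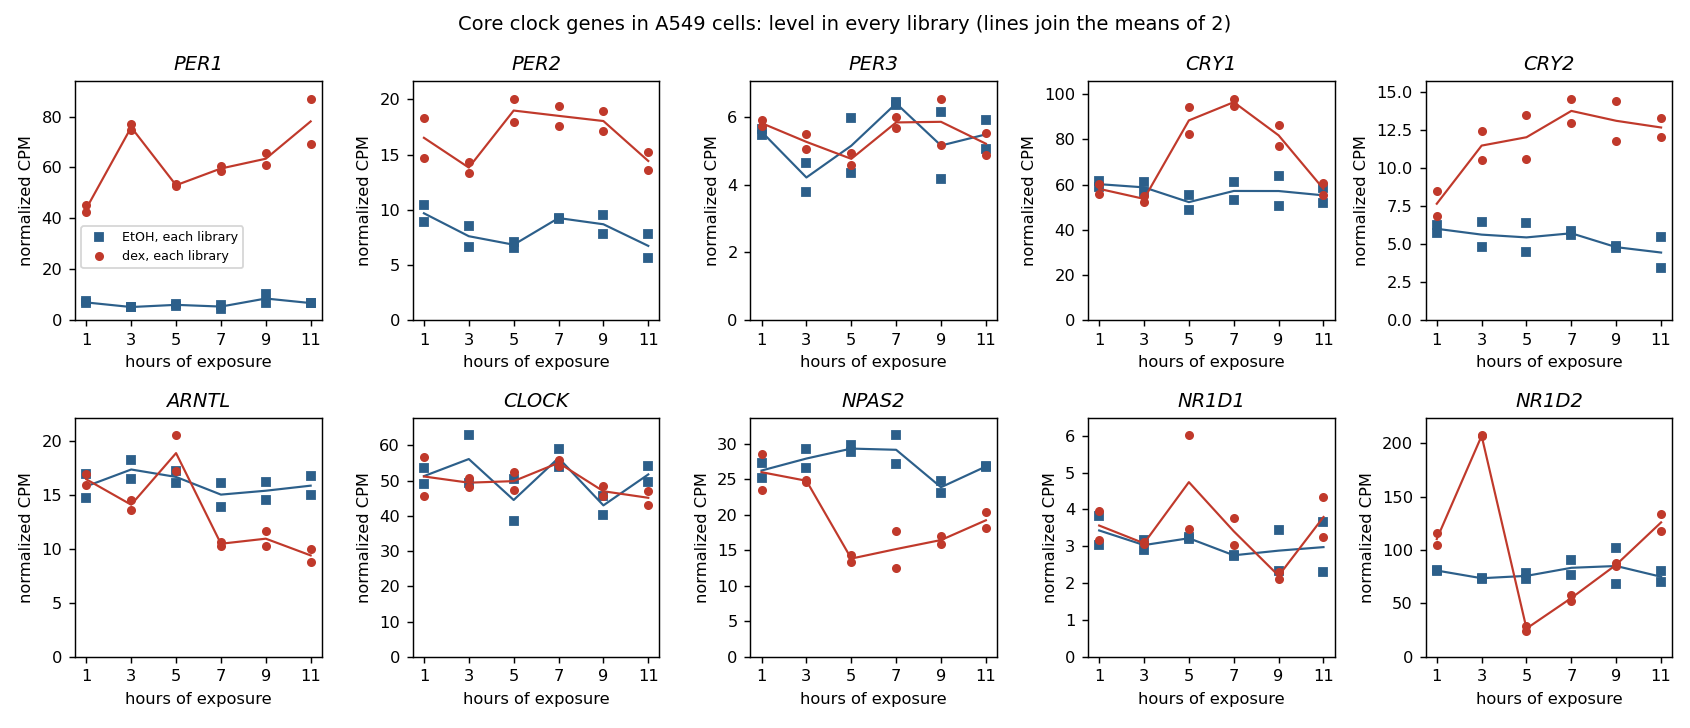
Normalized CPM (vertical axis, starting at 0) against hours of exposure for the 10 clock genes, with each EtOH library as a blue square, each dex library as a red circle and lines through the means of 2 libraries. *PER1*, *PER2* and *CRY2* are higher in every dex library than in every EtOH library, while *NR1D2* rises above EtOH at 3 hours, falls below it at 5 hours and is above it again at 11 hours.

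To find which clock genes responded to dex, dex was compared with EtOH at each time point, 2 libraries against 2, and a gene was called by the same threshold on the adjusted p. At 1 hour 3 of the 10 genes were called, all higher with dex, against 0.864% of all features (0.523% higher and 0.342% lower). At 3 hours 4 genes were called, again all higher, against 12.9% (7.66% higher and 5.29% lower). At 5 hours 4 were higher and 2 lower, against 23.1% (11.2% higher and 11.9% lower), and at 7 hours 4 were higher and 3 lower, against 25.8% (13.4% and 12.4%). At 9 hours 4 were higher and 2 lower, against 18.2% (9.79% and 8.42%), and at 11 hours 4 were higher and 1 lower, against 8.58% (5.31% and 3.27%). By the plain measure of 2 dex libraries that do not overlap with the 2 EtOH libraries, there were 5 genes at 1 hour (34.8% of all features), 8 at 3 hours (50.6%), 8 at 5 hours (54.4%), 9 at 7 hours (57%), 7 at 9 hours (53.9%) and 7 at 11 hours (45.1%). Of those at 3 hours, *CRY1*, *ARNTL* and *NPAS2* were lower with dex. In all, 7 genes were called at 1 or more time points, against 41.5% of all features, and these 7 were each called at 2 or more consecutive ones, against 18.9%. *PER1* and *PER2* were called at all 6 time points, as were 0.558% of all features. *PER3*, *CLOCK* and *NR1D1* were called at none. With DESeq2, *ARNTL* was called at no time point, and *PER2* was not called at 1 hour (adjusted p = 0.265), when 1 of the 10 genes was called. The shares of all features are those of edgeR, and DESeq2 called fewer, for example 1324 in place of 2576 at 3 hours. The median log2 fold change of the 10 genes was between 0.07 and 0.36 at the 6 time points, and that of all features between -0.01 and 0.00.

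**Figure D3:**
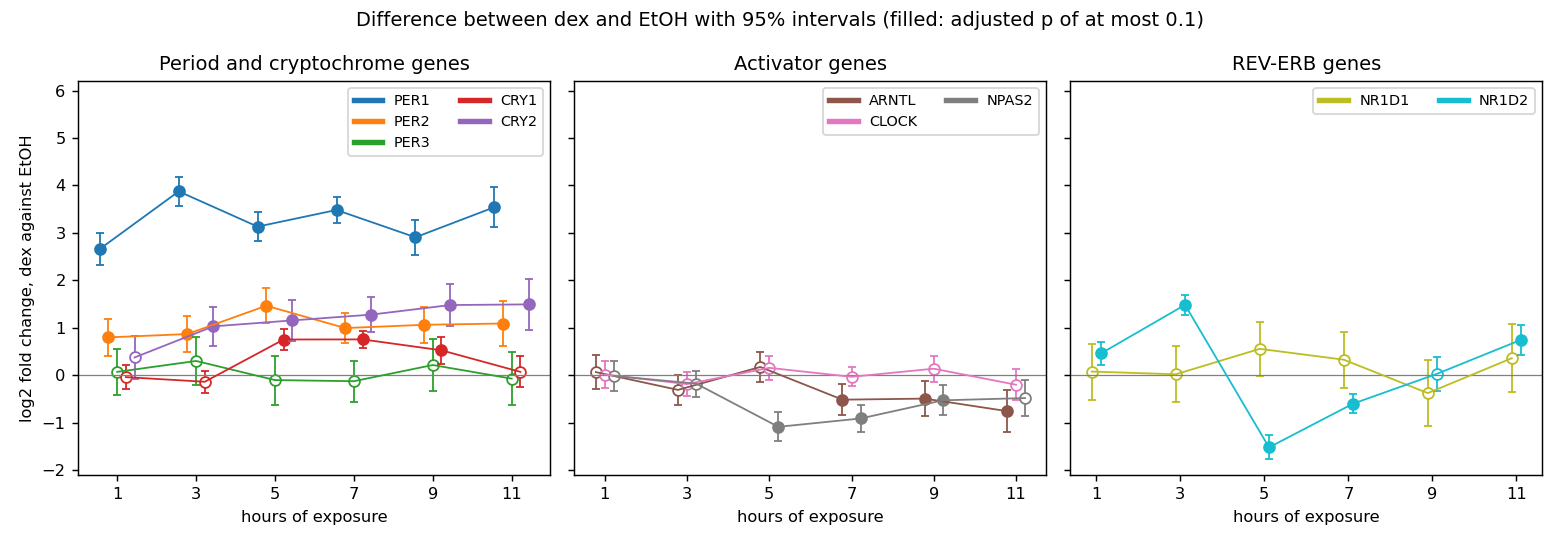
Log2 fold change of dex against EtOH (vertical axis) at each time point in hours, with 95% intervals of the fit, filled where the adjusted p is at most 0.1, for period and cryptochrome genes, activator genes and REV-ERB genes. *PER1* stays between 2.66 and 3.87, *NPAS2* has its lowest value of -1.09 at 5 hours, and *NR1D2* moves from 1.48 at 3 hours to -1.52 at 5 hours.

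*PER1* (chromosome 17 of GRCh38 from 8140472 to 8156506, minus strand), which encodes a repressor of the loop, had the largest response. In EtOH its lowest, median and highest libraries had 4.55, 6.43 and 10.2 normalized CPM. The dex libraries had 42.4 and 45.3 CPM at 1 hour, 77.0 and 74.6 at 3 hours and 52.5 and 53.5 at 5 hours. They had 58.5 and 60.7 CPM at 7 hours, 61.0 and 65.8 at 9 hours and 69.2 and 87.0 at 11 hours. Every dex library was thus above every EtOH library, already after 1 hour.
The log2 fold change of *PER1* was 2.66 at 1 hour (standard error 0.17, adjusted p = 3.41e-09) and 3.87 at 3 hours (standard error 0.15, adjusted p = 4.20e-19), a 14.7-fold difference. It was between 2.91 and 3.54 at the later time points. The difference between dex and EtOH itself changed over the 6 time points (adjusted p = 0.00315, against 13.8% of all features called in this test). In a test of consecutive time points, chosen after the values had been seen, it rose by 1.23 from 1 to 3 hours (standard error 0.23, adjusted p = 0.00166, 4.39% of all features called) and fell by 0.75 from 3 to 5 hours (standard error 0.24, adjusted p = 0.0796, 6.01% of all features called). The counts of *PER1* were spread over 9 transcripts, and for the 5 transcripts with at least 500 counts, dex and EtOH libraries did not overlap at any time point. These 5 include 2 annotated as targets of nonsense-mediated decay. Reads of 1 transcript may have been placed on another, so the share of each is uncertain.

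*PER2* (chromosome 2 from 238244038 to 238290102, minus strand), its paralog, was higher with dex at all 6 time points, but by less. It had 5.67 to 10.4 CPM in EtOH libraries (median 8.21) and 13.3 to 20.1 in dex libraries (median 17.3), without overlap. The log2 fold change was highest at 5 hours, at 1.46 (standard error 0.18, adjusted p = 1.52e-08), from 17.9 and 20.1 CPM with dex against 6.58 and 7.08 with EtOH. At the other time points it was between 0.80 and 1.09, and a change of the difference over time was not detected (adjusted p = 0.388).
At 1 hour the log2 fold change of 0.80 passed (adjusted p = 0.0579), and with DESeq2 it did not (adjusted p = 0.265). Without replicate 1 of dex, replicate 1 of EtOH or replicate 2 of EtOH at 1 hour, it was 0.62, 0.90 and 0.68 (adjusted p = 0.151, 0.162 and 0.961), and without replicate 1 of EtOH at 11 hours the value there was 0.89 (adjusted p = 0.227).
*PER3* (chromosome 1 from 7784320 to 7845177, plus strand), the third period gene, did not pass at any time point. Its libraries had 3.77 to 6.43 CPM with EtOH and 4.59 to 6.53 with dex. The 95% intervals of its log2 fold change lay between -0.63 and 0.80 at all time points, so that a 2-fold change in either direction was outside them. On the other strand, exons of *UTS2* cover 13.5% of the exon bases of *PER3*, but *UTS2* had 54 counts in 24 libraries.

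The 2 cryptochrome genes, which encode the partners of the period proteins, responded at different times. *CRY2* (chromosome 11 from 45847118 to 45883248, plus strand) had 3.40 to 6.43 CPM in EtOH libraries (median 5.53). With dex it had 8.48 and 6.82 CPM at 1 hour, 12.4 and 10.5 at 3 hours and 12.02 and 13.3 at 11 hours. Every dex library was above every EtOH library, by a small margin at 1 hour.
At 1 hour the log2 fold change of *CRY2* was 0.37 and did not pass (adjusted p = 0.867). From 3 hours on it was called at each time point, with 1.03 at 3 hours (standard error 0.20, adjusted p = 0.000475) and 1.49 at 11 hours (standard error 0.25, adjusted p = 0.00186). The difference changed over time at an adjusted p of 0.0990, close to the threshold. This call was lost with DESeq2 (adjusted p = 0.140) and with the replicate number as a block (adjusted p = 0.102). It was also lost at a threshold of 0.05. Leaving out replicate 1 or replicate 2 of both arms together at 1, 3, 7 or 9 hours lost it too.
*CRY1* (chromosome 12 from 106991364 to 107093829, minus strand) was not called at 1 and 3 hours. At 3 hours both dex libraries, with 54.9 and 52.4 CPM, were below both EtOH libraries, with 61.0 and 56.5, and the log2 fold change was -0.14 (adjusted p = 0.534). At 5 hours it had 82.3 and 94.5 CPM with dex against 48.9 and 55.5, or 0.75 on the log2 scale (standard error 0.11, adjusted p = 1.03e-06). At 7 hours the dex libraries had 94.9 and 98.0 CPM, and the log2 fold change was again 0.75 (standard error 0.09, adjusted p = 5.35e-08). The dex libraries were above both EtOH libraries at 5, 7 and 9 hours.
At 11 hours *CRY1* was back in the range of EtOH, with 60.7 and 55.4 CPM against 58.6 and 51.8 (log2 fold change 0.07, 95% interval -0.26 to 0.39). The difference changed over time (adjusted p = 0.000204), and the rise by 0.89 from 3 to 5 hours passed by itself (standard error 0.17, adjusted p = 0.00133). At 9 hours the log2 fold change of 0.52 (adjusted p = 0.0156) was 0.45 without replicate 1 of dex and 0.61 without replicate 2 of dex, and no longer passed (adjusted p = 0.300 and 0.121).

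Of the activators, *NPAS2* (chromosome 2 from 100820152 to 100996829, plus strand), a paralog of *CLOCK* that can take its place in the dimer, had the largest fall. It had 23.0 to 31.2 CPM in EtOH libraries (median 27.0). With dex it had 24.6 and 24.9 CPM at 3 hours, 14.3 and 13.3 at 5 hours, 17.8 and 12.6 at 7 hours, 17.0 and 15.9 at 9 hours and 18.1 and 20.3 at 11 hours. From 5 hours on, every dex library was below every EtOH library of the series.
The log2 fold change was -1.09 at 5 hours (standard error 0.15, adjusted p = 1.35e-07), -0.91 at 7 hours (standard error 0.14, adjusted p = 5.66e-06) and -0.53 at 9 hours (standard error 0.15, adjusted p = 0.0271). At 11 hours it was -0.48 and did not pass (adjusted p = 0.153), although it passed in one fit over 24 libraries (adjusted p = 0.0239) and without replicate 1 or replicate 2 of dex (-0.39 and -0.56, adjusted p = 0.0524 and 0.00505). The call at 9 hours was lost with DESeq2 (adjusted p = 0.134) and without replicate 1 or replicate 2 of dex (-0.56 and -0.48, adjusted p = 0.225 and 0.345). The difference changed over time (adjusted p = 0.00203), with a step of -0.91 from 3 to 5 hours (standard error 0.20, adjusted p = 0.00596). The antisense RNA AC016738.1, which covers 14.6% of the exon bases of *NPAS2*, was also lower at 5 and 7 hours (log2 fold changes -0.79 and -1.20, adjusted p = 0.0726 and 0.00666). It had 743 counts in all libraries against 5704 for *NPAS2*. Whether strand was used in counting is not stated, and its part in the values of *NPAS2* was not tested.
*ARNTL* (chromosome 11 from 13276652 to 13387266, plus strand), the obligate partner in the dimer, was lower with dex at the later time points. It had 13.9 to 18.2 CPM in EtOH libraries (median 16.2). The dex libraries had 20.5 and 17.3 CPM at 5 hours, 10.7 and 10.3 at 7 hours, 11.6 and 10.3 at 9 hours and 8.78 and 10.0 at 11 hours. From 7 hours on, every dex library was below every EtOH library of the series.
The log2 fold change of *ARNTL* was 0.17 at 5 hours (adjusted p = 0.532), -0.52 at 7 hours (standard error 0.16, adjusted p = 0.0159), -0.49 at 9 hours (standard error 0.18, adjusted p = 0.0792) and -0.76 at 11 hours (standard error 0.20, adjusted p = 0.0397). The change of the difference over time passed (adjusted p = 0.0158). No single step between consecutive time points passed, with -0.69 from 5 to 7 hours (standard error 0.21, adjusted p = 0.998), where 0 features passed. With DESeq2 none of the 3 calls at single time points was kept (adjusted p = 0.180, 0.311 and 0.109). The most counted of its 15 transcripts, with 599 of 3580 counts, had log2 fold changes of -0.45, -0.42 and -0.495 at these time points. None of these passed (adjusted p = 0.455, 0.507 and 0.605). Without 1 library the calls were also lost, at 7 hours without replicate 1 or 2 of dex (-0.55 and -0.49, adjusted p = 0.145 for both), at 11 hours without replicate 1 or 2 of EtOH (-0.67 and -0.84, adjusted p = 0.469 and 0.205) and at 9 hours without replicate 1 of dex, replicate 2 of dex or replicate 1 of EtOH (-0.56, -0.39 and -0.42, adjusted p = 0.296, 0.514 and 0.105).
*CLOCK* (chromosome 4 from 55427903 to 55547138, minus strand) did not pass at any time point. It had 38.4 to 62.8 CPM with EtOH and 43.2 to 56.6 with dex, and the 95% intervals of its log2 fold change lay between -0.53 and 0.41. Without replicate 2 of EtOH at 5 hours it passed there, with a log2 fold change of 0.38 (adjusted p = 0.0940) in place of 0.15.

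*NR1D2* (chromosome 3 from 23945260 to 23980618, plus strand), the gene of REV-ERB beta, was the only one of the 10 that was called higher at some time points and lower at others. In EtOH its lowest, median and highest libraries had 68.0, 77.2 and 102 CPM. With dex it had 116 and 105 CPM at 1 hour and 206 and 207 at 3 hours. At 5 hours it had 29.2 and 23.8 CPM, at 7 hours 52.5 and 57.6, at 9 hours 87.6 and 84.8 and at 11 hours 134 and 118. Within the dex arm, the mean of 3 hours was thus 7.81 times that of 5 hours, while the EtOH libraries of these time points had 73.9 and 73.1 CPM and 73.2 and 78.3 CPM.
The log2 fold change was 0.46 at 1 hour (standard error 0.12, adjusted p = 0.0932), 1.48 at 3 hours (standard error 0.10, adjusted p = 5.65e-13), -1.52 at 5 hours (standard error 0.13, adjusted p = 1.02e-13) and -0.60 at 7 hours (standard error 0.10, adjusted p = 1.03e-05). It was 0.03 at 9 hours (adjusted p = 0.944) and 0.74 at 11 hours (standard error 0.15, adjusted p = 0.00574). The change of the difference over time had an adjusted p of 1.77e-10, the smallest among the 10 genes. From 1 to 3 hours the difference rose by 1.04 (standard error 0.19, adjusted p = 0.000966), and from 3 to 5 hours it fell by 3.01 (standard error 0.20, adjusted p = 1.24e-10). At the later steps, from 5 to 7, 7 to 9 and 9 to 11 hours, it changed by 0.92, 0.62 and 0.73 and did not pass (adjusted p = 0.965, 0.25 and 0.103), and 0, 0.0653% and 0.533% of all features passed there. For the step from 5 to 7 hours, 793 features had an unadjusted p under 0.05 in edgeR, and no other tool was run.
The call at 1 hour was lost with DESeq2 (adjusted p = 0.170), in one fit over 24 libraries (adjusted p = 0.170), with at least 10 counts in every library (adjusted p = 0.118), with the most counted transcript alone (0.30, adjusted p = 0.688) and without replicate 1 or 2 of EtOH (0.45 and 0.46, adjusted p = 0.846 and 1.00). At 9 hours, when the 2 EtOH libraries had 102 and 68.0 CPM, the value was 0.36 without replicate 1 of EtOH (adjusted p = 0.00743) and -0.24 without replicate 2 (adjusted p = 0.0991), and at 11 hours it was 0.64 without replicate 2 of EtOH (adjusted p = 0.287).
The table holds 2 transcripts of *NR1D2*, and both followed this course. The protein-coding transcript, with 15573 counts, had 141 and 150 CPM at 3 hours and 19.8 and 17.9 at 5 hours with dex. The transcript annotated as a target of nonsense-mediated decay, with 6732 counts, had 65.8 and 56.8 CPM at 3 hours and 9.39 and 5.83 at 5 hours. At 5 hours both were below both EtOH libraries.

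**Figure D4:**
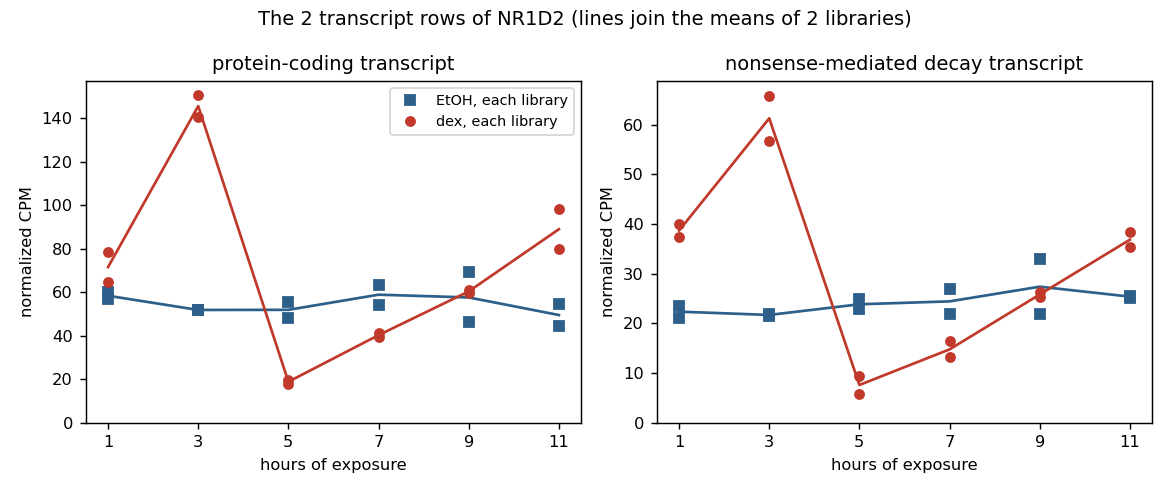
Normalized CPM (vertical axis) of the 2 transcripts of *NR1D2* against hours of exposure, with each EtOH library as a blue square, each dex library as a red circle and lines through the means of 2 libraries. Both transcripts are above EtOH at 3 hours and below it at 5 hours with dex.

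*NR1D1* (chromosome 17 from 40092787 to 40100725, minus strand), the gene of REV-ERB alpha, had few counts, between 16 and 55 per library. It had 2.30 to 3.82 CPM with EtOH and 2.10 to 6.01 with dex, and was not called at any time point. The largest log2 fold change was 0.55 at 5 hours (95% interval -0.02 to 1.13, adjusted p = 0.196). There the dex libraries differed, with 6.01 and 3.47 CPM, and without replicate 2 of dex the value was 0.89 and passed (adjusted p = 0.0351). A 2-fold change was outside the 95% interval at 1, 3 and 7 hours, and inside it at 5, 9 and 11 hours. On the other strand, exons of *THRA*, the gene of the thyroid hormone receptor alpha, cover 9.49% of the exon bases of *NR1D1*. *THRA* had 14366 counts against 794 for *NR1D1*, and was higher with dex from 3 hours on (log2 fold changes 1.16 to 1.46, called at each of these time points). Its part in the counts of *NR1D1* was not tested.

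The genes whose 6 log2 fold changes lay closest to those of *PER1*, *PER2* and *CRY2* were looked up among 15336 other genes. *PER1* and *PER2* were called at 6 time points, and *CRY2* and *NR1D2* at 5 each, of which *CRY2* was taken for its larger mean log2 fold change (1.13 against 0.10). For *PER1* these were *SYBU*, *FAM43A* and *ZFP36*, with root mean square differences of 0.53, 0.66 and 0.67 on the log2 scale. *ZFP36* encodes a protein that promotes the decay of mRNAs with AU-rich elements, and its log2 fold change was 2.34 at 1 hour and 2.93 at 3 hours. For *PER2* they were *EFNA3*, *FAM117A* and *DCUN1D3* (0.16, 0.17 and 0.22), and for *CRY2* they were *MMP15*, *LIFR* and *TGFBR1* (0.12, 0.13 and 0.13). No gene came as near to *PER1* as these did to *PER2* and *CRY2*. The likeness was taken from fold changes alone. *EFNA3* and *FAM117A* were called at 2 and 3 of the 6 time points, and the other nearest genes at 5 or 6.

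Beyond the core loop, lists of genes that modify clock proteins, act with them or are driven by them were counted, 40 genes in all that could be tested. Of these, 11 (27.5%) were called at 2 or more consecutive time points, against 18.9% of all features. Among 10 kinase genes there were 3. *CSNK1D*, the gene of casein kinase 1 delta, which phosphorylates PER proteins, was higher at 3, 5, 7 and 11 hours, with a log2 fold change of 0.62 at 3 hours (adjusted p = 4.80e-05), and *CSNK1A1* was higher at 5, 7 and 9 hours, with 0.53 at 9 hours (adjusted p = 0.00355). *PRKAA2*, the gene of a catalytic subunit of AMP-activated protein kinase, which phosphorylates CRY proteins, was lower from 3 hours on, with -0.84 at 5 hours (adjusted p = 2.49e-06).
Among 11 ubiquitin ligase and deubiquitinase genes, 1 was called at consecutive time points. *USP2*, the gene of a deubiquitinase of clock proteins, was higher from 3 hours on, with a log2 fold change of 1.92 at 7 hours (adjusted p = 1.73e-06). Among 13 partners and cofactors, 4 were called. *ARNTL2*, the paralog of *ARNTL*, was lower at 5, 7 and 9 hours, with -0.92 at 5 hours (adjusted p = 2.32e-08), and *TIMELESS* likewise, with -0.84 at 5 hours (adjusted p = 2.07e-08). *SIRT1*, the gene of a deacetylase, was lower at 3, 5 and 7 hours, with -0.56 at 5 hours (adjusted p = 0.00137), and *NCOR1*, the gene of the corepressor of REV-ERB, was higher at 5 and 7 hours, with 0.34 at 7 hours (adjusted p = 0.000570).
*RORA* and *RORB*, genes of receptors that compete with REV-ERB for its binding sites, were under the filter, with at most 17 and 5 counts in a library, as was *CIART* with at most 11. Among 6 output genes, *TEF* and *HLF*, activators that bind D-boxes, were higher at 5, 7 and 9 hours, with log2 fold changes of 0.88 and 1.27 at 7 hours (adjusted p = 0.00687 and 0.00135). Both had few counts, 21 to 87 and 9 to 52 per library, and *HLF* at 9 hours was close to the threshold (adjusted p = 0.0786). *NFIL3* was called at 7 hours only, higher by 0.44 (adjusted p = 0.00482). *BHLHE41*, with at most 16 counts in a library, was called at 3 hours only, at -1.69 (adjusted p = 0.0982). *BHLHE40*, the gene of a repressor that binds E-boxes, was lower at 1 and 3 hours, with -1.67 at 1 hour (adjusted p = 3.77e-08). *DBP* was not called at any time point, but it had only 5 to 21 counts per library. A 2-fold change in at least 1 direction was inside its 95% interval at each time point.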

How the data were processed

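RNA of A549 cells was sequenced in 24 libraries. According to the methods, the authors aligned single-end stranded reads to GENCODE transcripts (Bowtie) and tallied them per transcript (samtools). The deposited values are raw counts. How reads matching several transcripts were placed, and whether strand was used, is not stated. The methods state triplicates, and 2 replicates per group were analysed here. The labels name hg19, while transcripts were joined by identifier without version to GENCODE release 29 (GRCh38), which gave all gene coordinates and lengths. Of 119207 transcripts, 110262 were joined (94.1% of counts) and summed per gene, and 8945 stayed as features of their own.

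Features were kept by filterByExpr over 12 groups (19897 of 42072) and tested with edgeR 4.0.16 (TMM, robust quasi-likelihood F-test, Benjamini-Hochberg adjustment, threshold 0.1). Each adjusted p is from this test unless DESeq2 (1.42.0) is named. A standard error is the size of the log2 fold change over the square root of its F statistic. Normalized CPM use TMM factors over 24 libraries. Tests over time used a fit of 12 libraries for one arm and of 24 for the change of the difference. As separate cultures are not stated, p-values measure the spread between these libraries, which may be technical. The scripts were tested on simulated counts. Members, lists, rules and tests were chosen with earlier results of these data known. The alternatives were DESeq2, its size factors in edgeR, no filter, a minimum of 10 counts in all libraries, a joint fit of 24 libraries, a block for the replicate number, a threshold of 0.05, the most counted transcript of each gene, and leaving out each library. In the test of the change of the difference, the dex and EtOH libraries of the same time and replicate number were left out together. The steps between consecutive time points were added after the data were seen. Genes named are the members, *TSC22D3*, cell type markers, genes overlapping members on the other strand, the 3 nearest genes by pattern for each of 3 members, and of each list at most 4 genes called at 2 consecutive time points. *DBP*, *NFIL3*, *BHLHE41* and genes under the filter were named after their values were seen. R was 4.3.3 and matplotlib 3.10.9. Some items are not reported here.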

Additional observations from a re-analysis of the deposited data

Results flagged for a closer look

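The difference between dex and EtOH was itself tested for a change over the 6 time points, and 6 of the 10 clock genes passed, against 13.8% of all features. The adjusted p was 1.77e-10 for *NR1D2*, 0.000204 for *CRY1*, 0.00203 for *NPAS2*, 0.00315 for *PER1*, 0.0158 for *ARNTL* and 0.0990 for *CRY2*. For *NR1D2* the direction turned, with log2 fold changes of 1.48 at 3 hours, -1.52 at 5 hours and 0.74 at 11 hours. *CRY1* was called against EtOH at 5, 7 and 9 hours and *ARNTL* at 7, 9 and 11 hours. With DESeq2 none of these calls of *ARNTL* was kept (adjusted p = 0.180, 0.311 and 0.109). The call of *CRY1* at 9 hours was lost when either dex library was left out (log2 fold changes 0.45 and 0.61). The change over time of *CRY2* did not pass with DESeq2 (adjusted p = 0.140). It also failed when either replicate number of both arms was left out at 1, 3, 7 or 9 hours.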

How the results depend on the processing

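Under settings other than leaving out a library, 480 log2 fold changes of the 10 genes were compared with the main ones. Of these, 461 kept their direction and their side of the threshold, 15 no longer passed, 1 newly passed and 3 changed sign. The threshold of 0.05, among these settings, reused the main fit, so that no direction could change and no gene could newly pass. Of 60 pairs of gene and time point, 31 were called in the main fit, and only these could lose a call. The sign changes came with the most counted transcript, with -0.0242 for *CLOCK* and 0.11 for *NPAS2* at 1 hour and 0.10 for *PER3* at 5 hours, none of them called. The number of clock genes called at 1 hour fell from 3 to 1 with DESeq2 and to 1 at a threshold of 0.05. In the EtOH course it rose from 0 to 1 without a filter (*CLOCK*, adjusted p = 0.0335). *PER1* kept its call against EtOH at each time point in every setting run.

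Leaving out 1 library leaves a lone library that is assumed to vary like the others. Of 240 log2 fold changes, 199 kept direction and call, 18 no longer passed, 5 newly passed and 18 changed sign. The number of clock genes called ranged from 1 to 3 at 1 hour, from 3 to 7 at 9 hours, from 3 to 6 at 11 hours and from 0 to 2 in the EtOH course. The values that changed sign ranged at 1 hour from -0.10 to 0.0096 for *CRY1*, from -0.0359 to 0.17 for *ARNTL*, from -0.15 to 0.15 for *CLOCK*, from -0.15 to 0.13 for *NPAS2* and from -0.11 to 0.26 for *NR1D1*. They ranged at 3 hours from -0.36 to 0.0011 for *CLOCK* and from -0.0517 to 0.0858 for *NR1D1*, at 5 hours from -0.32 to 0.13 for *PER3* and from -0.0207 to 0.38 for *CLOCK*, and at 7 hours from -0.10 to 0.0296 for *CLOCK*. They ranged at 9 hours from -0.026 to 0.55 for *PER3* and from -0.24 to 0.36 for *NR1D2*, and at 11 hours from -0.20 to 0.0506 for *PER3* and from -0.0237 to 0.17 for *CRY1*. The cause of these shifts was not tested.

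The replicate number was also used as a block. The methods name a vehicle control paired with dex, without saying which libraries form pairs. Deviations of same-numbered dex and EtOH libraries correlated between -0.104 and 0.201 over the time points, with the highest value at 1 hour. The main tests did not take the numbers as pairs, and these correlations cannot settle whether the libraries were paired. With the block, the change of the difference over time had an adjusted p of 0.102 for *CRY2*, against 0.0990 without it, and no other call of the 10 genes changed. Over all features, calls at 1 hour rose from 172 to 634 with the block and to 307 without a filter. With DESeq2 they were 1324 in place of 2576 at 3 hours, 2660 in place of 4606 at 5 hours, 2727 in place of 5132 at 7 hours and 2032 in place of 3624 at 9 hours. At 11 hours a joint fit of 24 libraries gave 2971 in place of 1707, and the EtOH course had 2120 without a filter and 230 at a threshold of 0.05, in place of 662. *NR1D1* had the fewest counts of the 10 genes, with 16 to 55 per library, and whether depth limited its calls was not tested.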
